A study of Solanum lycopersicum with 27 samples.

Results

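Small heat shock proteins were followed in tomato leaves as 10 listed loci, of which 8 are listed as cytosolic proteins of class I or class II, 1 as a chloroplast protein (Solyc05g014280) and 1 as a mitochondrial protein (Solyc08g078700). The members were the rows of the deposited count table whose identifier, without its version, is on the list. Of the 34688 loci in the table, 9 were members, and Solyc08g062450 was not analysed here because no row carried its identifier. By the number in their identifiers, 4 of the listed loci lie on chromosome 6, 3 on chromosome 8, 2 on chromosome 9 and 1 on chromosome 5. The class and compartment come from the list alone, since no table used here pairs these identifiers with a name or a sequence.

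Small heat shock proteins are chaperones that share an alpha-crystallin domain, assemble into oligomers and hold unfolding proteins without using ATP until HSP70 and its partners refold them. Plants carry an unusually large set, sorted into cytosolic classes and into forms imported by chloroplasts and mitochondria. Their genes are known for strong induction by heat through heat stress transcription factors and for low transcript levels in unstressed leaves, and several are also known to respond to drought, osmotic stress and seed maturation.

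The plants were wild-type Solanum lycopersicum of the cultivar Moneymaker, 50 days old when the treatment began, grown in a cycle of 16 h light with 8 h dark at 70% relative humidity. In the water deficit arm watering was stopped completely, and in the control arm plants were watered to soil capacity on alternate days. Mature leaves, each sampled as 1 leaflet, were collected in both arms at day 4, day 5, day 8 and day 10, and whole developing leaves, called young here, at day 10. All groups held 3 libraries of polyadenylated RNA except 3 groups with 2 libraries, which were mature leaf at day 8 labelled deficit, mature leaf at day 8 labelled control and mature leaf at day 10 labelled control. The labels do not say whether replicates came from separate plants, so p-values measure only the spread between these samples. In whole leaf tissue, fewer cells of a type and less RNA per cell cannot be told apart.

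The 27 libraries held 14725924 to 19642202 counts each. Within 9 of the 10 groups, the lowest correlation between libraries was r = 0.989 in log2 CPM, where CPM is the count per 1000000 after scaling of library sizes. Replicate 1 of the mature day 10 deficit group stood apart: it correlated at r = 0.888 and r = 0.884 with the other libraries of its group, and at r = 0.994 and r = 0.993 with the libraries labelled control of that day. It was kept under its label, values that rest on it are given with and without it, and arms are called by their labels throughout.

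Transcripts of the family were sparse at most loci. Solyc06g076520.1 ranged from 16.8 to 53.4 CPM over the 27 libraries, Solyc06g076570.4 from 22.2 to 57.2 CPM and Solyc06g076560.2 from 5.61 to 14.9 CPM. Solyc09g015000.4 had the widest range of these better covered loci, 1.78 to 22.2 CPM. Solyc09g015020.1 stayed between 0.774 and 2.51 CPM, and the mitochondrial Solyc08g078700.3 between 0.539 and 3.40 CPM. The chloroplast Solyc05g014280.4, with 2 to 33 counts per library, and Solyc08g062340.3, with 2 to 23 counts, were highest in young control leaves. In the other libraries they had at most 11 counts, nearer the limit of 3 counts that a count of 0 allows. Solyc06g076540.1 had 0 to 5 counts, 34 in all 27 libraries together, and was the one member with a row that did not pass the filter on low counts, which asked for 0.541 CPM, or 10 counts at the median depth, in at least 2 libraries. It reached 5 counts in replicate 3 of the mature day 10 control group and was tested only in the alternative fits that dropped the filter.

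**Figure D1:**
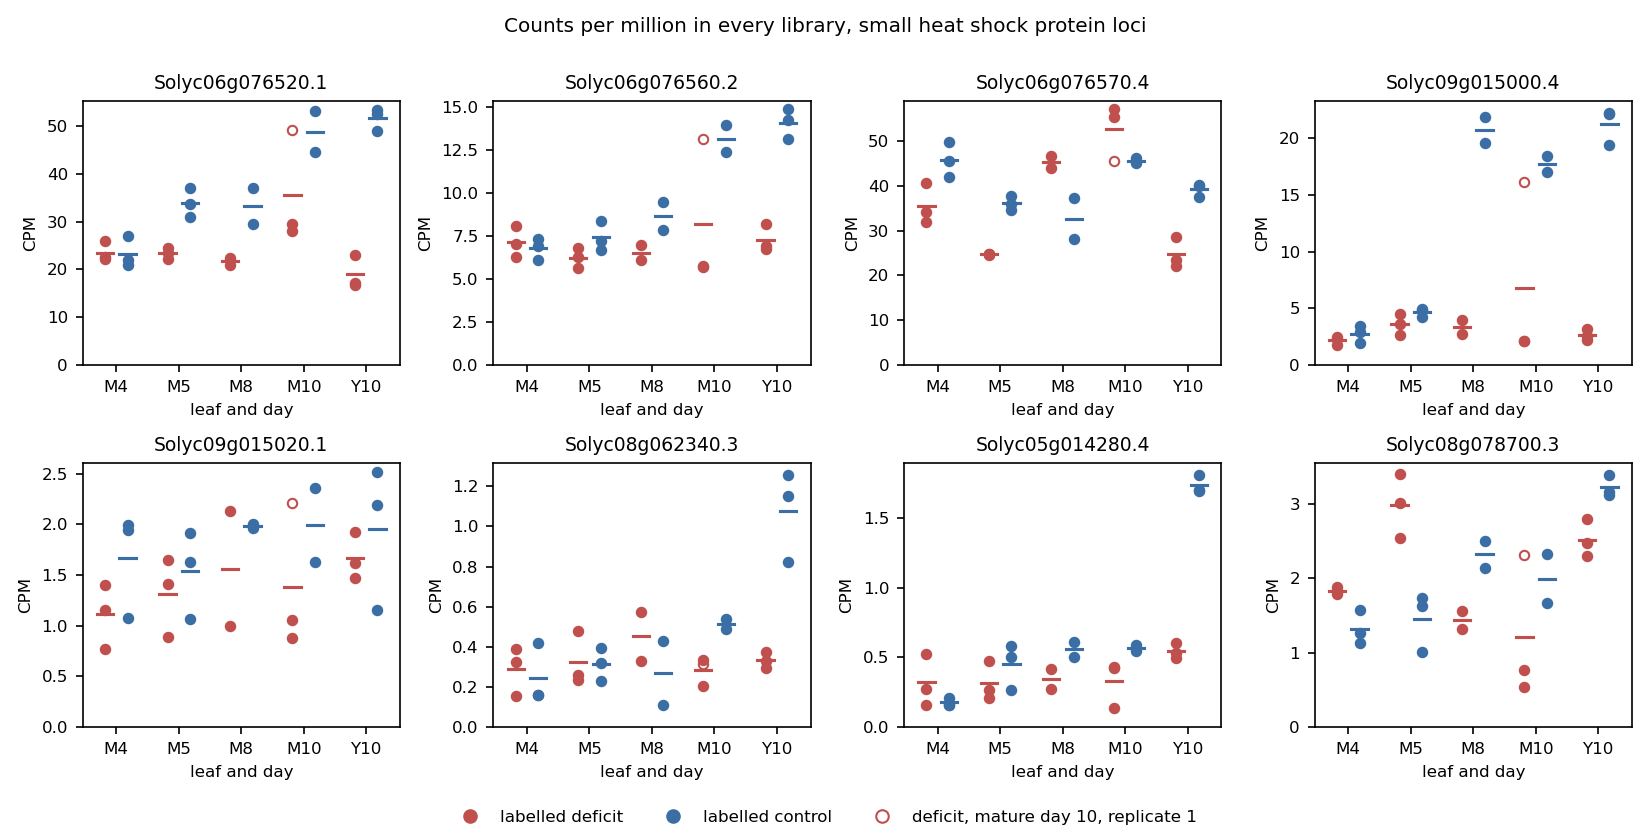
Counts per 1000000 (CPM, linear axis from 0) of the 8 tested loci in every library. M4, M5, M8 and M10 are mature leaf at day 4, 5, 8 and 10, Y10 is young leaf at day 10, dots are libraries, bars are group means, and the open dot is replicate 1 of the mature day 10 deficit group. In young leaf the deficit dots lie below all control dots at 7 of the 8 loci, as they do at 38.1% of all 19087 tested loci, of which 35.2% were called lower.

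The first question was whether water withholding raised these transcripts above the control arm of the same day. With all libraries, more of the called members were lower than higher in the deficit arm in each of the 5 comparisons of the arms. In mature leaf this rests on 1 or 2 lower loci per day, set beside the shares of all loci below. It did not hold in every fit that left out a library. No member was called at day 4 without control replicate 1, or at day 10 without deficit replicate 2. At day 5, 1 was lower and 1 higher without control replicate 2. For young leaf every such fit called 6 members. In young leaf 6 of the 8 tested loci were called, each lower in the deficit arm, where 35.2% of all 19087 tested loci were called lower. Of these 6, Solyc08g062340.3 passed the filter only through the young control libraries, so its difference there follows in part from the filter. The median log2 fold change over the 8 loci was -1.20 in young leaf, against 0.0074 over all tested loci. That median takes in Solyc08g062340.3, at -1.68, so it too follows in part from the filter.

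In mature leaf 1 locus was called at day 4, lower in the deficit arm, where 6.48% of all loci were called lower. At day 5, 2 loci were called lower and 1 higher, with 13.2% and 14.6% of all loci called in these directions. At day 8 again 2 were called lower and 1 higher, where 32.5% and 34.7% of all loci were, so the members' share was no larger than the background. At day 10, 2 loci were called lower, against 12.4% of all loci. Without replicate 1 of the deficit group, 6 loci were called at day 10, 5 lower and 1 higher, beside 29.8% and 32.6% of all loci. The same fit called 5 loci at day 8, 4 lower and 1 higher, beside 34.8% and 37.7% of all loci.

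**Figure D2:**
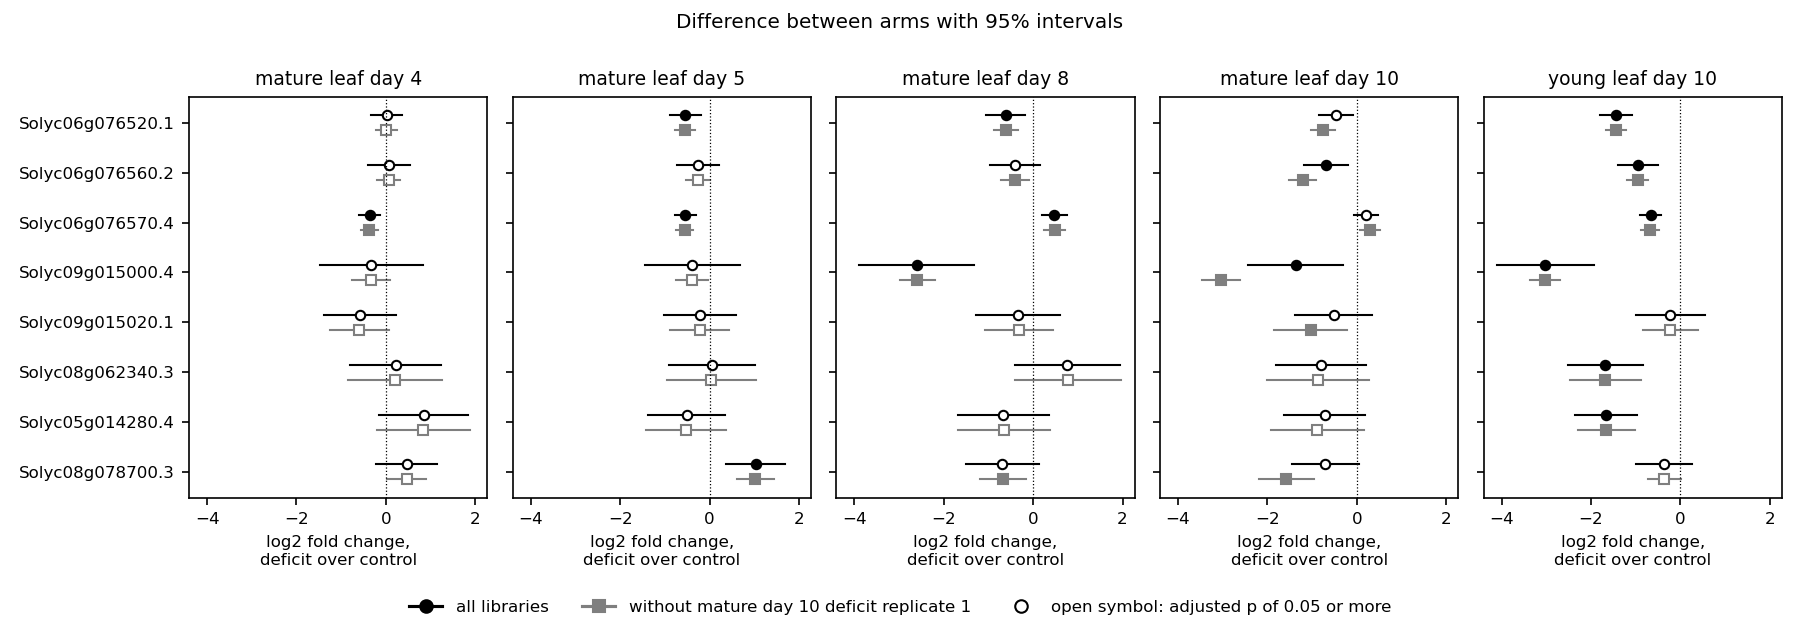
Log2 fold change of the deficit arm over the control arm for each tested locus, with 95% intervals, with all libraries (black circles) and without replicate 1 of the mature day 10 deficit group (grey squares). Filled symbols have an adjusted p below 0.05. At Solyc05g014280.4 and Solyc08g062340.3, which had few counts, some intervals are narrower than counting error alone would make them. Solyc09g015000.4 lies farthest from 0, with all libraries at -2.61 at mature day 8 and -3.02 in young leaf. Without replicate 1 it lies at -3.04 at mature day 10. Solyc06g076570.4 lies right of 0 at days 8 and 10 and left of it elsewhere.

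Among the cytosolic loci, Solyc09g015000.4 had the largest difference between the arms. In young leaf it had 3.17, 2.52 and 2.18 CPM in the libraries labelled deficit, against 22.1, 19.4 and 22.2 CPM in those labelled control. The groups lay far apart, with the deficit arm 8.10-fold lower (log2 fold change -3.02, SE 0.52, adjusted p = 4.27e-05). At day 8 mature leaf had 4.00 and 2.76 CPM in the deficit arm, against 19.6 and 21.8 CPM in the control arm, a 6.10-fold lower level (log2 fold change -2.61, SE 0.61, adjusted p = 0.00106). These calls held in every one of the 27 fits that left out a library.

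At day 10 the mature deficit group of Solyc09g015000.4 had 16.1, 2.15 and 2.16 CPM, against 17.0 and 18.5 CPM in the control group. Replicate 1 was thus just below the control range, and the other deficit libraries were far below it. The log2 fold change was -1.37 with all libraries (SE 0.51, adjusted p = 0.0441) and -3.04 without replicate 1 (SE 0.21, adjusted p = 8.89e-14). The call with all libraries was lost when other libraries were left out, with an adjusted p of 0.167 without deficit replicate 2 and 0.167 without deficit replicate 3. It was also lost without either control library, at 0.122 and 0.157, and lay between 0.0502 and 0.053 in 18 of the fits that left out a library of another group. At day 4 the locus had 2.47, 1.78 and 2.32 CPM in the deficit arm, against 3.41, 2.89 and 1.94 CPM in the control arm, and at day 5 it had 3.61, 4.46 and 2.66 CPM, against 4.27, 4.82 and 4.98 CPM. The arms overlapped on both days, with 95% intervals of the log2 difference from -1.48 to 0.83 at day 4 and from -1.45 to 0.68 at day 5.

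Followed over days in mature leaf, the libraries labelled deficit averaged 2.19 ± 0.362 CPM at day 4 (SD, n = 3), 3.58 ± 0.902 CPM at day 5 (SD, n = 3), 3.38 ± 0.878 CPM at day 8 (SD, n = 2) and 2.15 ± 0.0059 CPM at day 10 without replicate 1 (SD, n = 2). With replicate 1 the day 10 mean was 6.81 ± 8.06 CPM (SD, n = 3). The libraries labelled control averaged 2.75 ± 0.746 CPM at day 4 (SD, n = 3), 4.69 ± 0.370 CPM at day 5 (SD, n = 3), 20.7 ± 1.62 CPM at day 8 (SD, n = 2) and 17.7 ± 1.02 CPM at day 10 (SD, n = 2). The separation of the arms at this locus thus came with a higher level in the control arm from day 8 on. The change over days was not called in the deficit arm (adjusted p = 0.0628, beside 49.3% of all loci called) and was called in the control arm (adjusted p = 0.000164, beside 75.1% of all loci called). The deficit arm was called by DESeq2 (0.0173), and by edgeR when day 10 lacked replicate 1 (0.0039), replicate 2 (0.00507) or replicate 3 (0.00813).

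On chromosome 6, Solyc06g076520.1 was 2.72-fold lower in young leaves labelled deficit. Its levels were 22.9, 16.8 and 17.3 CPM in the deficit arm, against 53.4, 48.9 and 52.5 CPM in the control arm (log2 fold change -1.44, SE 0.17, adjusted p = 5.55e-07). The arms did not overlap, as at 38.1% of all tested loci in this direction in young leaf. At day 5 mature leaf had 23.5, 24.4 and 22.1 CPM in the deficit arm, against 33.7, 37.0 and 31.0 CPM in the control arm (log2 fold change -0.54, SE 0.17, adjusted p = 0.0209). At day 8 it had 22.5 and 21.0 CPM, against 29.5 and 37.1 CPM (log2 fold change -0.62, SE 0.21, adjusted p = 0.0124). In both comparisons every deficit library was below every control library. This was so at 25% of all tested loci at day 5 and at 41.9% at day 8.

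The day 5 call of Solyc06g076520.1 was lost without control replicate 2 (adjusted p = 0.0809), deficit replicate 1 (0.0545) or deficit replicate 3 (0.0718). The day 8 call was lost without control replicate 2 (0.15) or deficit replicate 2 (0.0767). At day 10 the mature deficit libraries had 49.2, 29.5 and 28.1 CPM, against 53.1 and 44.6 CPM in the control libraries, so that replicate 1 lay within the control range. The log2 fold change there was -0.45 (SE 0.18, adjusted p = 0.0578, or 0.0498 without young deficit replicate 1), and -0.76 without the mature deficit replicate 1 (SE 0.13, adjusted p = 9.12e-06). At day 4 the arms had close means, 23.5 ± 2.12 CPM in the deficit arm and 23.3 ± 3.25 CPM in the control arm (SD, n = 3 each), with a 95% interval of the log2 difference from -0.34 to 0.37.

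Solyc06g076560.2, on the same chromosome, was 1.93-fold lower in young leaves labelled deficit, with 8.21, 6.75 and 6.89 CPM in the deficit arm against 14.2, 13.1 and 14.9 CPM in the control arm (log2 fold change -0.95, SE 0.22, adjusted p = 0.000644). In mature leaf at day 10 it had 13.1, 5.68 and 5.73 CPM in the deficit arm, against 14.0 and 12.4 CPM in the control arm. Replicate 1 again lay within the control range and the other deficit libraries below it. The log2 fold change was -0.68 (SE 0.24, adjusted p = 0.0334) with all libraries and -1.21 (SE 0.15, adjusted p = 3.78e-08) without replicate 1. The call was lost without control replicate 2 (0.167) or replicate 3 (0.0927) and without deficit replicate 2 (0.171) or replicate 3 (0.161).

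At day 8, Solyc06g076560.2 had 6.08 and 6.96 CPM in the deficit arm, against 7.85 and 9.45 CPM in the control arm. Its adjusted p there was 0.187 with all libraries. It was 0.0213 when replicate 1 of mature day 10 deficit was dropped, a library outside the comparison that bears on it through the shared estimate of the spread. At days 4 and 5 the test did not call it, with adjusted p of 0.879 and 0.438. Over days the control arm changed at both Solyc06g076520.1 (adjusted p = 0.000406) and Solyc06g076560.2 (adjusted p = 0.00617, or 0.0757 without mature day 10 control replicate 2). Their control means at day 10 were 48.8 ± 6.01 CPM and 13.2 ± 1.11 CPM (SD, n = 2 each), against 23.3 ± 3.25 CPM and 6.79 ± 0.642 CPM at day 4 (SD, n = 3 each). The deficit arm also changed over days at Solyc06g076520.1 (adjusted p = 0.00538, or 0.0408 without day 10 deficit replicate 1). That call was lost when only the compared groups were fitted (adjusted p = 0.0713). Over days 75.1% of all loci were called in the control arm and 49.3% in the deficit arm.

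The third well covered locus of chromosome 6, Solyc06g076570.4, went the other way late in the course. At day 8 mature leaf had 46.8 and 44.1 CPM in the deficit arm, against 28.1 and 37.2 CPM in the control arm, with no overlap and a 1.39-fold higher level in the deficit arm (log2 fold change 0.47, SE 0.14, adjusted p = 0.00475). Every deficit library lay above every control library at 43.9% of all tested loci on that day. The call was lost without control replicate 1 (log2 fold change 0.29, adjusted p = 0.103). At day 10 it had 45.7, 55.4 and 57.2 CPM in the deficit arm, against 46.3 and 45.0 CPM in the control arm. Replicate 1 lay between the control libraries, and the log2 fold change was 0.21 (SE 0.12, adjusted p = 0.188) with it and 0.30 (SE 0.11, adjusted p = 0.0233) without it.

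Earlier in the course, and in young leaf, Solyc06g076570.4 was lower in the deficit arm. At day 5 it had 24.7, 24.8 and 24.8 CPM in the deficit arm, against 35.9, 37.7 and 34.7 CPM in the control arm (log2 fold change -0.54, SE 0.11, adjusted p = 0.00133). At day 4 it had 34.1, 40.6 and 32.0 CPM, against 49.9, 42.0 and 45.5 CPM (log2 fold change -0.37, SE 0.11, adjusted p = 0.0364). The arms were separate on both days. In this direction they were so at 22.5% of all tested loci at day 4 and at 25% at day 5. The day 4 call was lost without control replicate 1 (0.176) or replicate 3 (0.0633) and without deficit replicate 1 (0.113) or replicate 3 (0.17). In young leaf the locus had 28.6, 23.4 and 22.2 CPM in the deficit arm, against 37.6, 40.1 and 40.1 CPM in the control arm, a 1.59-fold lower level with no overlap (log2 fold change -0.67, SE 0.11, adjusted p = 3.07e-05).

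The interaction of treatment with day asked whether the gap between the arms of mature leaf depended on the day. It was called at 2 of the 8 loci, beside 57% of all loci. In the fit that lacked replicate 1 of mature day 10 deficit it was called at 5, beside 73.6%, and the added loci were Solyc06g076520.1 (adjusted p = 0.000799), Solyc06g076560.2 (1.62e-05) and Solyc09g015000.4 (1.08e-10). Solyc09g015000.4, at 0.0601 with all libraries, was also called without replicate 2 (0.0211) or replicate 3 (0.0265) of that group, and by DESeq2 with all libraries (0.0215). Solyc06g076570.4 had the smallest adjusted p among the members (0.000227). Relative to day 4, its difference between the arms shifted by -0.18 at day 5, 0.84 at day 8 and 0.57 at day 10 on the log2 scale. Its deficit arm changed over days by -0.52 at day 5, 0.35 at day 8 and 0.57 at day 10 (adjusted p = 1.7e-06), and its control arm by -0.34, -0.49 and -0.0048 on the same days (adjusted p = 0.0029). Changes over days were called at 3 loci in the deficit arm and 5 in the control arm with all libraries, beside 49.3% and 75.1% of all loci. The fit that lacked that replicate 1 called 4 and 6, beside 64.6% and 81.2% of all loci. All values against day 4 within an arm share the day 4 libraries, and each day was a separate collection, so day and collection cannot be told apart within an arm.

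**Figure D3:**
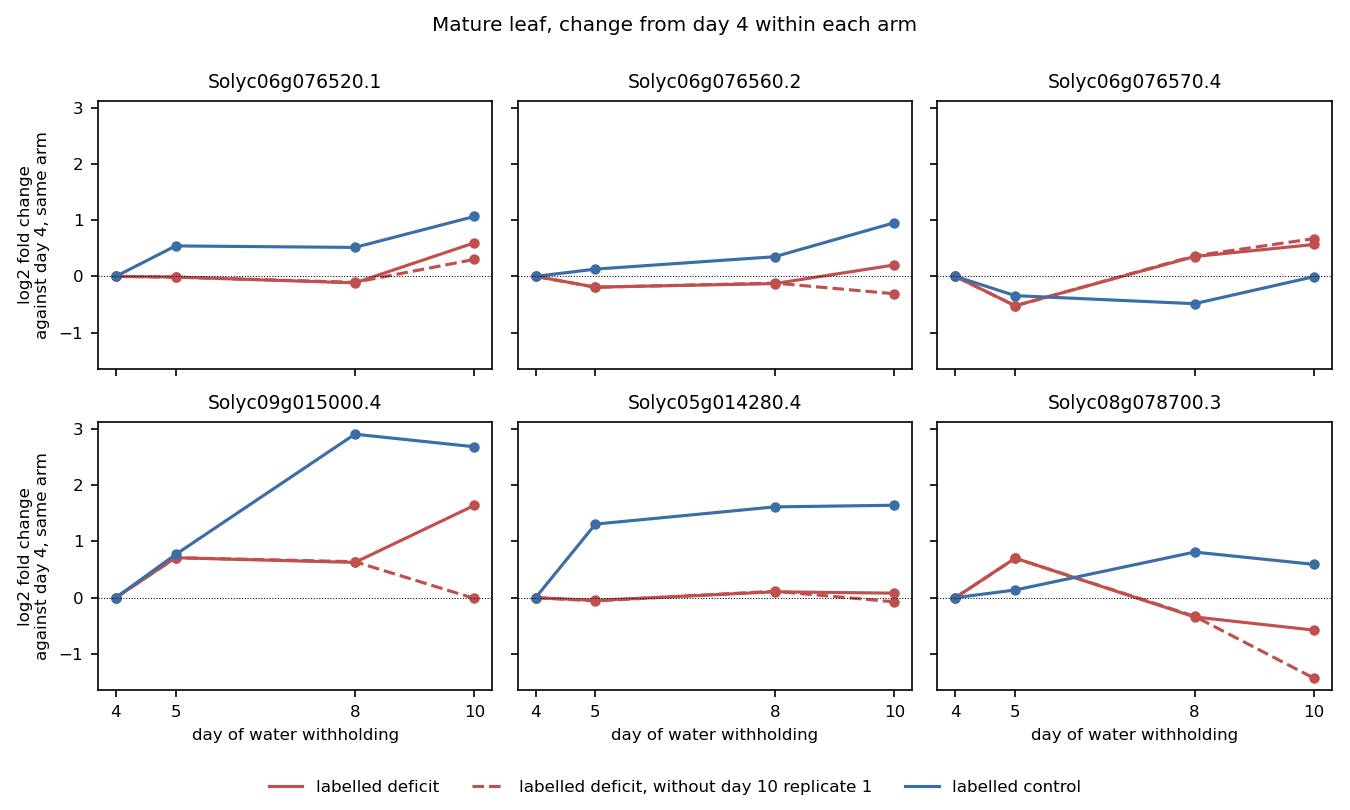
Log2 fold change against day 4 within each arm of mature leaf for 6 loci, by day of water withholding. The dashed line leaves out replicate 1 of the day 10 deficit group. At Solyc09g015000.4 the deficit arm was 0.63 above its day 4 level at day 8, against 2.91 in the control arm, and at Solyc06g076570.4 the deficit arm was the higher one relative to day 4 at days 8 and 10.

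The other cytosolic loci were thinly covered. Solyc09g015020.1 lies near Solyc09g015000.4 by its number, and its arms overlapped in each of the 5 comparisons. In young leaf it had 1.62, 1.92 and 1.47 CPM in the deficit arm, against 1.15, 2.19 and 2.51 CPM in the control arm. The 95% interval of the log2 difference ran from -0.99 to 0.55, a range that does not reach the -3.02 estimated for Solyc09g015000.4 in the same leaves. At mature day 10 it had 2.21, 1.05 and 0.877 CPM in the deficit arm, against 2.36 and 1.63 CPM in the control arm, and it was called lower only in the fit without replicate 1 (log2 fold change -1.03, SE 0.40, adjusted p = 0.0261).

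Solyc08g062340.3 had 6, 6 and 5 counts in the young deficit libraries, against 15, 21 and 23 counts in the young control libraries. On the CPM scale these were 0.373, 0.329 and 0.294 in the deficit arm and 0.822, 1.15 and 1.26 in the control arm (log2 fold change -1.68, SE 0.40, adjusted p = 0.000915). The counts did not overlap. In the mature libraries the locus stayed at 2 to 11 counts, and it was called at day 8 (log2 fold change 1.97, adjusted p = 0.0424) only when control replicate 1 was left out. The young control libraries were 3 of the 4 libraries that reached the filter's level, so the call rests on the group that let the locus into the test.

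The chloroplast locus Solyc05g014280.4 stood at its highest in young control leaves. It had 0.497, 0.604 and 0.530 CPM in young leaves labelled deficit, against 1.81, 1.70 and 1.69 CPM in those labelled control, which are 8, 11 and 9 counts against 33, 31 and 31 counts. The level was 3.15-fold lower in the deficit arm (log2 fold change -1.66, SE 0.33, adjusted p = 0.000186). In mature leaf it had 2 to 11 counts in every library and no comparison of the arms called it. The adjusted p was 0.313 at day 4, 0.409 at day 5, 0.238 at day 8 and 0.203 at day 10. At days 8 and 10 every deficit library lay below every control library, as at 41.9% and 14.8% of all tested loci. Such low counts leave room for differences in either direction.

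Over days in mature leaf, the chloroplast locus had 10, 3 and 5 counts at day 4, 4, 5 and 8 counts at day 5, 8 and 5 counts at day 8, and 8, 9 and 2 counts at day 10 in the deficit arm, where the adjusted p for a change over days was 0.988. In the control arm it changed over days (adjusted p = 0.0129), with 3, 4 and 3 counts at day 4, 5, 9 and 10 counts at day 5, 10 and 9 counts at day 8, and 11 and 10 counts at day 10. The call was lost without day 4 control replicate 1 (0.055) or replicate 3 (0.0504).

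The mitochondrial locus Solyc08g078700.3 was the one member called higher in the deficit arm at day 5. It had 3.40, 2.55 and 3.01 CPM in the deficit arm, against 1.01, 1.63 and 1.74 CPM in the control arm, a 2.05-fold higher level with no overlap (log2 fold change 1.04, SE 0.32, adjusted p = 0.0187). Every deficit library lay above every control library at 26.1% of all tested loci on that day. The call was lost without control replicate 1 (log2 fold change 0.81, adjusted p = 0.105) or deficit replicate 1 (0.93, adjusted p = 0.0706). At day 4 the deficit libraries, at 1.78, 1.84 and 1.88 CPM, lay above the control libraries, at 1.57, 1.26 and 1.13 CPM, but the test did not call the difference (log2 fold change 0.47, SE 0.33, adjusted p = 0.385). Such an order of the arms was found at 21.9% of all tested loci at day 4.

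By day 8 the order of the arms at the mitochondrial locus was the opposite. The deficit libraries had 1.56 and 1.33 CPM, against 2.15 and 2.50 CPM in the control libraries (log2 fold change -0.69, SE 0.39, adjusted p = 0.128, or 0.0185 without replicate 1 of the day 10 deficit group). At day 10 the deficit libraries had 2.32, 0.764 and 0.539 CPM, against 1.66 and 2.33 CPM in the control libraries. Replicate 1 was within the control range, and the log2 fold change was -0.70 with it (SE 0.36, adjusted p = 0.13) and -1.57 without it (SE 0.30, adjusted p = 3.71e-05). The interaction of treatment with day was called at this locus (adjusted p = 0.00892), as was the change over days in the deficit arm (adjusted p = 0.0107, or 0.0522 without day 5 deficit replicate 1). That change over days was not called when only the compared groups were fitted (adjusted p = 0.164). In young leaf the arms were 2.80, 2.47 and 2.30 CPM in the deficit arm and 3.40, 3.12 and 3.17 CPM in the control arm, with an adjusted p of 0.294 and a 95% interval of the log2 difference from -0.98 to 0.27.

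Young leaves were compared with mature leaves at day 10 to ask whether these levels differed between them. Mature samples were 1 leaflet and young samples whole developing leaves, so leaf age and the part sampled cannot be told apart. In the control arm 1 of the 8 loci was called, higher in young leaf, where 9.54% of all loci were called higher. It was Solyc05g014280.4, with 1.73 ± 0.0647 CPM in young leaf (SD, n = 3) and 0.566 ± 0.0335 CPM in mature leaf (SD, n = 2), a 3.04-fold higher level (log2 fold change 1.60, SE 0.38, adjusted p = 0.00513). The call was lost without mature control replicate 2 (0.0568) or replicate 3 (0.0726). Without replicate 1 of the mature deficit group, Solyc08g062340.3 (log2 fold change 1.04, adjusted p = 0.0429) and Solyc08g078700.3 (0.68, adjusted p = 0.0129) were called too, 3 loci beside 17.8% of all loci called higher. Solyc08g062340.3 was in the test only through the young control libraries, so its call here follows in part from the filter. Solyc09g015000.4 had 21.3 ± 1.59 CPM in young control leaves (SD, n = 3) and 17.7 ± 1.02 CPM in mature control leaves (SD, n = 2), and was not called (adjusted p = 0.775).

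In the deficit arm 3 loci were called lower and 1 higher in young leaf, with 20.7% and 19.7% of all loci called in these directions. Without replicate 1 of the mature group the numbers were 2 lower and 1 higher, beside 20.3% and 21.2%. Solyc06g076570.4 had 24.7 ± 3.40 CPM in young leaf and 52.7 ± 6.21 CPM in mature leaf (SD, n = 3 each), a 2.13-fold lower level without overlap (log2 fold change -1.09, SE 0.11, adjusted p = 2.2e-07, and -1.20 without replicate 1). Every young library lay below every mature library at 17.4% of all tested loci in this arm. Solyc06g076520.1 was lower in young leaf, at -0.91 on the log2 scale (SE 0.17, adjusted p = 0.000275), and at -0.62 without replicate 1 (adjusted p = 0.000189). The call was lost when only the compared groups were fitted (-0.91, adjusted p = 0.105). The mitochondrial Solyc08g078700.3 was higher in young leaf, with 2.52 ± 0.255 CPM against 1.21 ± 0.968 CPM in mature leaf (SD, n = 3 each). Its log2 fold change was 1.04 (SE 0.33, adjusted p = 0.0157), and 1.89 without replicate 1 (SE 0.27, adjusted p = 1.39e-06). This call was lost without mature deficit replicate 2 (0.0733) or replicate 3 (0.0611) or young deficit replicate 1 (0.0518). It was also lost when only the compared groups were fitted (adjusted p = 0.295).

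Solyc09g015000.4 was called lower in young deficit leaves with all libraries (log2 fold change -1.39, SE 0.52, adjusted p = 0.0397), a direction that held with replicate 1 of the mature group only. Without it the log2 fold change was 0.27 (SE 0.24, adjusted p = 0.411). With replicate 1 kept, the call was lost without young deficit replicate 1 (0.0583), replicate 2 (0.093) or replicate 3 (0.114). It was also lost when only the compared groups were fitted (adjusted p = 0.361).

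The interaction of treatment with leaf age asked whether the difference between the arms was itself different in young leaf. It was called at 2 loci, each with a more negative difference in young leaf, as for 8.78% of all loci. At Solyc06g076570.4 the log2 difference between the arms was -0.67 in young leaf and 0.21 in mature leaf, an interaction of -0.87 (SE 0.17, adjusted p = 0.00164), and of -0.97 without replicate 1 (SE 0.15, adjusted p = 1.4e-05). At Solyc06g076520.1 it was -1.44 in young leaf and -0.45 in mature leaf, an interaction of -0.99 (SE 0.25, adjusted p = 0.0119), and of -0.68 without replicate 1 (adjusted p = 0.00413). That call was lost without mature control replicate 3 (-0.87, adjusted p = 0.0798) or with only the compared groups fitted (-0.99, adjusted p = 0.16). The fit that lacked replicate 1 called 3 loci, 1 with a positive interaction beside 10.8% of all loci and 2 with a negative one beside 10.8%. The added locus was Solyc08g078700.3, at 1.21 (SE 0.35, adjusted p = 0.0133). The value of Solyc09g015000.4 was -1.65 with replicate 1 (SE 0.73, adjusted p = 0.132) and 0.019 without it (adjusted p = 0.979). It was called, at -2.09 and -2.05, when replicate 2 (0.0204) or replicate 3 (0.0259) of the mature deficit group was left out.

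**Figure D4:**
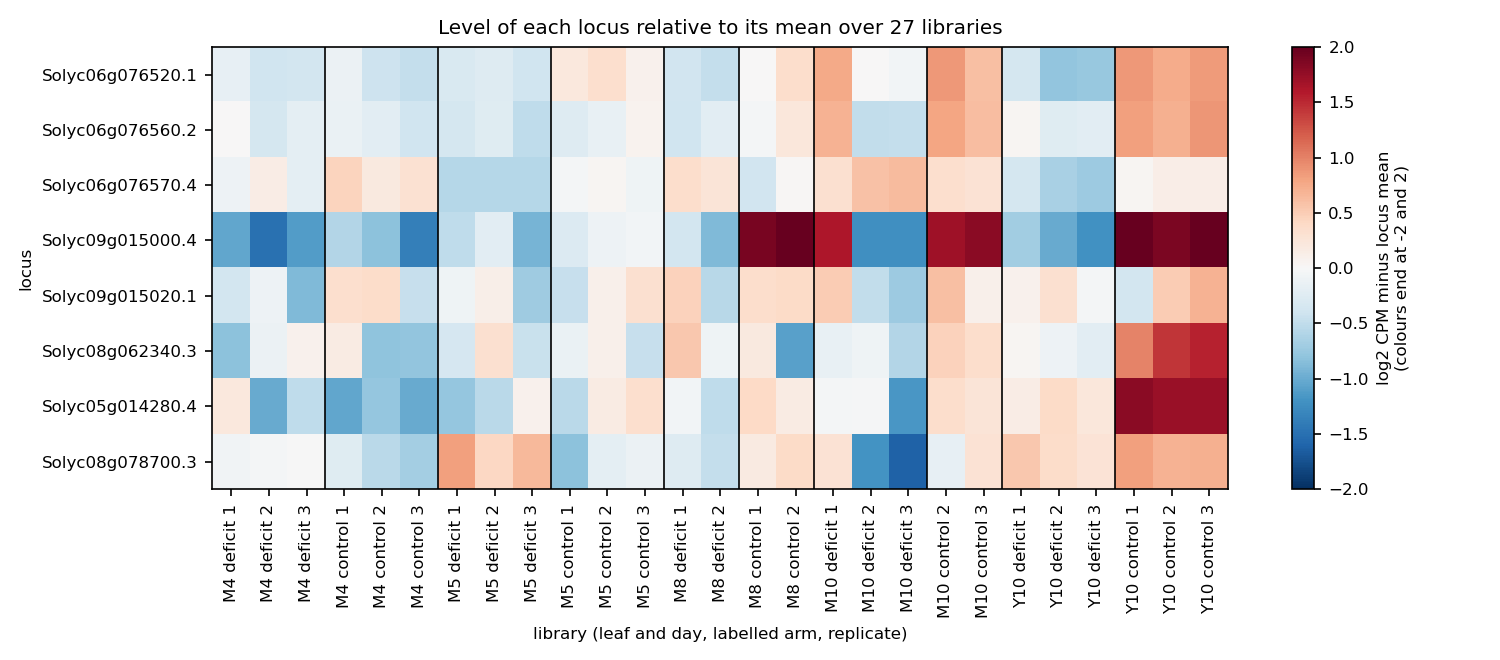
Log2 CPM of each tested locus minus its mean over the 27 libraries, with loci in rows and libraries in columns by leaf and day, labelled arm and replicate. Red is above and blue below the locus mean, and colours end at -2 and 2. The column M10 deficit 1 is red at Solyc09g015000.4, unlike M10 deficit 2 and 3, and Solyc06g076570.4 is pale in the young control columns, where Solyc09g015000.4 is red.

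The members did not form a single pattern over the 27 libraries. On the log2 CPM scale Solyc06g076520.1, Solyc06g076560.2 and Solyc09g015000.4 correlated with each other at Pearson's r of 0.851, 0.854 and 0.869. Solyc06g076570.4 correlated with the first of these at r = 0.419, with Solyc06g076560.2 at 0.182, with Solyc09g015000.4 at 0.124 and with the mitochondrial Solyc08g078700.3 at -0.617. These values describe libraries that share groups and depth, and no p is attached. When replicate 1 of mature day 10 deficit was dropped, the first 3 were 0.836, 0.844 and 0.860 and the last was -0.643. Close copies on one chromosome may share reads, and how the authors' counting treated such reads is not given in the sources used here, so values of the chromosome 6 loci, of which Solyc06g076520.1 and Solyc06g076560.2 moved together, are uncertain in that respect.

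Neighbours by locus number gave a view of the surroundings. Within 30 numbers of a member with a row lay 29 other loci, of which 20 passed the filter and 9 did not. In young leaf 12 of these 20 were called higher and 5 lower in the deficit arm, beside 36.2% and 35.2% of all loci. Solyc09g014990.4, the closest tested neighbour below Solyc09g015000.4, moved in the opposite direction. It averaged 60.6 ± 4.60 CPM in young deficit leaves and 5.73 ± 0.294 CPM in young control leaves (SD, n = 3 each). At day 8 it averaged 20.8 ± 1.12 CPM in the deficit arm and 2.47 ± 0.118 CPM in the control arm (SD, n = 2 each). The tables used here give this locus no name.

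The loci most like the mean of the 8 tested members were sought among 12109 loci with a mean log2 CPM of at least 3. The measure was Pearson's r with the mean centred log2 CPM of those members over the 27 libraries. That mean was unscaled and highest in the young control libraries, the group that let Solyc08g062340.3 into the test. As the members did not form a single pattern, a high r is not likeness to each of them. The closest was Solyc03g113700.3 at r = 0.941, followed by Solyc01g058320.4 at 0.938, Solyc11g010600.2 at 0.937, Solyc11g008260.2 at 0.936 and Solyc08g083110.4 at 0.932. Without replicate 1 of the mature day 10 deficit group they kept ranks 1 to 5, with r from 0.930 to 0.938. Solyc03g113700.3 averaged 32.7 ± 4.69 CPM in young deficit leaves and 63.5 ± 4.93 CPM in young control leaves (SD, n = 3 each). Solyc08g083110.4 averaged 6.46 ± 1.18 CPM in the deficit arm and 114.7 ± 4.26 CPM in the control arm of the same leaves (SD, n = 3 each). Both loci were picked by r over these same libraries, so a higher level in young control leaves follows in part from the choice.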

How the data were processed

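The deposited table holds raw read counts per locus for 27 poly(A) libraries, read as paired ends of 100 nt per the labels' protocols. DESeq2 is the one tool in the submitters' processing notes, and the aligner, counting tool, genome build and use of strand are not given in the sources used here. Columns were matched to libraries by the sample descriptions. None of the loci matched the 41476 genes of the reference table, so no names, sequences or other heat response genes were analysed here. Members and lists were chosen with earlier results of these data known.

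The analysis used edgeR 4.0.16 under R 4.3.3. Of 34688 loci, 19087 passed filterByExpr. Library sizes were scaled by TMM. The negative binomial model had 1 coefficient for each group and took in all 27 libraries, so that groups share an estimate of the spread. A library far from its replicates widens that estimate in every comparison. The quasi-likelihood F test of edgeR was applied to each contrast, 2-sided, Benjamini-Hochberg adjusted over all tested loci and called below 0.05. Standard errors are the log2 fold change over the square root of F. At loci with few counts they can be smaller than counting error alone. Log2 CPM used a prior count of 2. The script was tested on simulated data. The floor of 3 counts covers counting error only. Every member is named, with neighbours within 30 locus numbers and the 5 most similar loci. As alternatives, DESeq2 1.42.0 replaced edgeR, scaling was by RLE or by upper quartile, the filter was dropped or set to a mean CPM of 1, the model held just the groups compared or had a replicate block, and each library was left out in turn.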

Additional observations from a re-analysis of the deposited data

Results flagged for a closer look

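The difference between the arms itself differed with day or leaf age at 3 loci, which were listed for that test and not because they stood out from other loci. The interaction of treatment with day was called at 57% of all tested loci and at 2 of the 8 members, Solyc06g076570.4 (adjusted p = 0.000227) and the mitochondrial Solyc08g078700.3 (adjusted p = 0.00892). The interaction of treatment with leaf age at day 10 was negative and called at 8.78% of all tested loci and at 2 members, Solyc06g076570.4 (adjusted p = 0.00164) and Solyc06g076520.1 (adjusted p = 0.0119). At Solyc06g076570.4 the difference between the arms was below 0 at days 4 and 5 and in young leaf and above 0 at mature days 8 and 10. Solyc08g078700.3 was above 0 at days 4 and 5 and below 0 at days 8 and 10. At Solyc06g076520.1 the difference at day 10 was below 0 at either leaf age, and more negative in young leaf (-1.44) than in mature leaf (-0.45).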

How the results depend on the processing

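Numbers of members called are given here, with the share of all tested loci called in the same fits. Leaving out each of the 27 libraries in turn gave 0 to 1 at mature day 4 (6.01% to 31% of all loci), 1 to 3 at day 5 (19.9% to 43.5%), 2 to 5 at day 8 (56.9% to 72.5%), 0 to 6 at day 10 (0% to 62.3%) and 6 to 6 in young leaf (66.6% to 75.3%). The same fits gave 2 to 4 for leaf age in the deficit arm (32.8% to 45.5%), 0 to 3 for leaf age in the control arm (7.9% to 34%), 1 to 3 for treatment by leaf age (6.58% to 25.4%), 2 to 5 for treatment by day (47.4% to 73.6%), 2 to 4 for days in the deficit arm (41.4% to 64.6%) and 4 to 6 for days in the control arm (66.2% to 81.2%). Fits restricted to the groups compared gave 5 at day 8 (75.6%), 0 at day 10 (0%), 1 for leaf age in the deficit arm (6.46%), 4 for leaf age in the control arm (39.6%), 1 for treatment by leaf age (2.29%) and 1 for days in the deficit arm (21.8%). That day 10 fit called 0 of 17949 loci by edgeR, with 834 at an unadjusted p under 0.05. No filter gave 1 at day 10 (24.5%). It gave 6 of 9 tested members for days in the control arm (58.1%), against 5 in the main fit. The added locus was Solyc06g076540.1, which had 0 counts at day 8 and 4 and 5 counts at day 10 in that arm. A mean CPM of at least 1, which removed the chloroplast locus, gave 0 for leaf age in the control arm (18.5%). Solyc09g015000.4, for leaf age in the deficit arm, had log2 fold changes from -1.83 to 0.27 over the fits that left out a library, the highest without mature deficit replicate 1, and lost its call with no filter (adjusted p = 0.0525).

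Same-numbered libraries of the arms deviated together at r from -0.14 to 0.158, with 2 of 13 pairs over 0.1. At day 8, with 2 libraries per arm, both replicates have the same value (-0.0261) by construction. The numbers were not taken to pair the libraries, but these values cannot exclude pairing. The replicate block called 4 members for treatment by day (56.2% of all loci), adding Solyc06g076520.1 (adjusted p = 0.0472) and Solyc09g015000.4 (0.0314). It called 3 at mature day 10 (38.9%), adding Solyc06g076520.1 (log2 fold change -0.54, adjusted p = 0.0161). It called 3 for leaf age in the deficit arm (39.2%), without Solyc09g015000.4 (-1.22, adjusted p = 0.0576). It changed no other call of a member. Depth limits the chloroplast locus and Solyc08g062340.3.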
